A study of Homo sapiens with 24 samples.

Results

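The 42 genes described here mark endothelial cells, the cells that line blood and lymph vessels, or do work for which those cells are known. They were matched by gene symbol, and all 42 were found among the 26346 gene rows of every library. Poly(A) RNA was sequenced from 24 libraries in 12 groups of 2, and no group is made of endothelial cells. SW13 is an adrenal carcinoma line, and LNCaP and VCaP are prostate cancer lines. All constructs were carried by lentiviruses into established cancer lines, and the hairpin constructs are labelled by target only. SW13 cells received 2 such viruses together. The first carried the ETS transcription factor ERG with a V5 tag (ERG) or nothing (Empty). The second carried V5-tagged BRG1, the ATPase of the BAF chromatin remodeler (BRG1), its K785R mutant (BRG1-K785R) or GFP (GFP), which gives the groups BRG1 ERG and BRG1 Empty, BRG1-K785R ERG and BRG1-K785R Empty, and GFP ERG and GFP Empty. The sample titles name GFP in the last pair, whereas some protocol texts name luciferase as that control. LNCaP cells received ERG, the related ETS factor ETV1, or the empty vector. VCaP cells, which carry a TMPRSS2-ERG fusion and so make ERG of their own, received a hairpin construct against ERG (shERG), against the BAF subunit ARID1A (shARID1A) or a control (shCt). All groups share 48 h of virus exposure and drug selection, which lasted 2 days in SW13 (blasticidin and puromycin), 4 days in LNCaP (blasticidin) and 8 days in VCaP (puromycin). The 2 libraries of a group came from separate infections, selections and cultures of the same line, so p-values measure the spread between such cultures.

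ERG is one of the ETS proteins that endothelial cells make throughout life, and it keeps vessel-wall genes such as VE-cadherin (CDH5) active there. Vessels grow towards VEGF, which acts through the receptors KDR, FLT1 and FLT4, and the Notch ligand DLL4 restrains how many cells sprout. Angiopoietins act through the receptor TEK, with TIE1 as its partner, and set how stable a vessel is. BAF complexes move or evict nucleosomes with the energy of ATP, and a change in the ATP-binding lysine of BRG1 is the usual way to remove that activity. In prostate cancer, ERG is made in epithelial cells, where most of the 42 genes have no known role.

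The constructs were read first. ERG had 1860 and 2150 CPM (read counts scaled to the library total) in SW13 BRG1 ERG, 1610 and 1590 CPM in BRG1-K785R ERG and 1470 and 1590 CPM in GFP ERG, against 0 to 0.226 CPM in the 6 Empty libraries of SW13. SMARCA4, the gene of BRG1, had 1960 and 2260 CPM in BRG1 ERG, 2150 and 2200 CPM in BRG1 Empty, 1420 and 1430 CPM in BRG1-K785R ERG and 2180 and 2040 CPM in BRG1-K785R Empty, against 25.5 to 35.4 CPM in the 4 GFP libraries. These levels of ERG and SMARCA4 are not equal between the constructs compared below, and their part in the differences was not tested. ERG had 996 and 958 CPM in LNCaP ERG, against 0.277 and 0.619 CPM in LNCaP Empty, and 81.0 and 87.9 CPM in VCaP shERG, against 330 and 354 CPM in VCaP shCt. In VCaP shARID1A, ERG was also lower than in shCt, at 242 and 238 CPM. SMARCA4 moved in VCaP as well, with 244 and 246 CPM in shERG, 122 and 125 CPM in shARID1A and 154 and 153 CPM in shCt. Its part in the changes in VCaP was not tested. ETV1 had 3750 and 3630 CPM in LNCaP ETV1, against 568 and 590 CPM in LNCaP Empty. ARID1A had 71.9 and 75.3 CPM in VCaP shARID1A, against 251 and 250 CPM in VCaP shCt. Library totals ran from 19754265 to 41996681 counts.

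The start regions of 8 members are shown because they hold the letters that ETS proteins read, GGAA, and because the 8 genes behave differently in SW13. KDR, TIE1, ROBO4, APLN, EXOC3L2 and DLL4 are high in BRG1 ERG, while CD34 and S1PR1 are already high without ERG; they were picked after their values were seen. Each run is the 250 bases before the start site in the RefSeq promoter table for GRCh38.p14, written in the direction of the gene. Capitals mark GGAA, or TTCC where GGAA lies on the other strand.
KDR: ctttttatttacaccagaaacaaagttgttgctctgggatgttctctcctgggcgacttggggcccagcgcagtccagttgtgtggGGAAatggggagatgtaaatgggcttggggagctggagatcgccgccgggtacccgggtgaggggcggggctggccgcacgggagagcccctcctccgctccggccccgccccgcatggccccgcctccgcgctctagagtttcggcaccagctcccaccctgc
TIE1: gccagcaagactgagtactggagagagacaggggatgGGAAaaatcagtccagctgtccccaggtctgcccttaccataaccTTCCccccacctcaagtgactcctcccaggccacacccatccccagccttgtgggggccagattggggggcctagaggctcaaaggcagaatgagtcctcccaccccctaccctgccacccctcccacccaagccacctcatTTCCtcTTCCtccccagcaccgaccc
ROBO4: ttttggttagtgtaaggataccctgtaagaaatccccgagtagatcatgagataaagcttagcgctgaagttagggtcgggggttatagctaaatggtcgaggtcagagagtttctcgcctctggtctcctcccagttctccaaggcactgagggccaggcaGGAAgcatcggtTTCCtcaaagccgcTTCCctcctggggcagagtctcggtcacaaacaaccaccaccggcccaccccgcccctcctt
APLN: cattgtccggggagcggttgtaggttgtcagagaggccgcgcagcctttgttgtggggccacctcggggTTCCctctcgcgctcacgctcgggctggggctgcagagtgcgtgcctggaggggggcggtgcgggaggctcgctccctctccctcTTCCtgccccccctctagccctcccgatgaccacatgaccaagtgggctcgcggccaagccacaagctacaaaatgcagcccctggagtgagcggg
EXOC3L2: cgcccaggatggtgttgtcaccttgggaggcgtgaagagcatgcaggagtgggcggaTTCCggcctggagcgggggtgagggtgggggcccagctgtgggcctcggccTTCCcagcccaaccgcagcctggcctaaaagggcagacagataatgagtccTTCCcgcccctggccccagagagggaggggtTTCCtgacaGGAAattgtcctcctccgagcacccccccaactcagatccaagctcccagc
DLL4: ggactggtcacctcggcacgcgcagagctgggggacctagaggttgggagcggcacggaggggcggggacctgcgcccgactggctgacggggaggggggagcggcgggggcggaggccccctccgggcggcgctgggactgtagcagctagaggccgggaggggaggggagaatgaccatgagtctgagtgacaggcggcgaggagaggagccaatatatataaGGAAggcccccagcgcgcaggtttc
CD34: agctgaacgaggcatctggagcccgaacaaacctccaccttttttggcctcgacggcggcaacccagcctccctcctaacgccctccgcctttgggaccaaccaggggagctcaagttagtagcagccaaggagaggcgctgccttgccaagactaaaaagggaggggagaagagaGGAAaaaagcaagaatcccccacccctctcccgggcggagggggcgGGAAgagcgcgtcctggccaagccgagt
S1PR1: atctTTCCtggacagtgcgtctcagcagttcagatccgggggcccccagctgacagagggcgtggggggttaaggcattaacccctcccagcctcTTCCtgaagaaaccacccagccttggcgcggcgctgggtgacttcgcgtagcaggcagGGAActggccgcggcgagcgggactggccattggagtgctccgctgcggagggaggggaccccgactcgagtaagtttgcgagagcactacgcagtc
The windows lie at chr4:55125596-55125845 on the minus strand (KDR), chr1:43300732-43300981 on the plus strand (TIE1), chr11:124897866-124898115 on the minus strand (ROBO4), chrX:129654957-129655206 on the minus strand (APLN), chr19:45245408-45245657 on the minus strand (EXOC3L2), chr15:40929090-40929339 on the plus strand (DLL4), chr1:207911126-207911375 on the minus strand (CD34) and chr1:101236769-101237018 on the plus strand (S1PR1). They hold 1, 4, 3, 2, 5, 1, 2 and 3 GGAA matches in that order. A GGAA match is common: 92.7% of 35116 windows of the same length in the table held one on either strand, and so did 31 of the 32 windows of the 26 members that the table lists. The longer letters AGGAAG, which contain GGAA, were found in 28.7% of all windows and in 20 of the 32 member windows, some of which belong to the same gene or overlap. CGGAAG was found in 16.5% of all windows and in 1 of the 32, and AACAGGAA in 1.85% of all windows and in 3 of the 32, those of TEK, MMRN1 and ADGRF5. A match is a description of the letters and does not show binding.

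Across the whole series the 42 genes were mostly low, and SW13 BRG1 ERG stood above the rest. The authors' RPKM, which divides reads by gene length and library depth, is the scale used here to set genes beside one another. In SW13, the number of members with a mean of at least 1 RPKM was 23 in BRG1 ERG and 9 in BRG1 Empty, 12 in BRG1-K785R ERG and 8 in BRG1-K785R Empty, and 9 in GFP ERG and 8 in GFP Empty. It was 9 in LNCaP ERG, 6 in LNCaP ETV1 and 5 in LNCaP Empty, and 6 in VCaP shERG, 7 in VCaP shARID1A and 9 in VCaP shCt. The median member was at 1.54 RPKM in BRG1 ERG, against 0.272 RPKM in BRG1 Empty, and at 0.111 RPKM in LNCaP ERG, against 0.0607 RPKM in LNCaP Empty. Of the 42 members, 20 had their highest group mean of all 12 groups in SW13 BRG1 ERG. The share of all genes was not counted over the 12 groups, so that number is a description only. The next groups in that order were VCaP shCt with 5 members (ENG, SOX7, SOX17, LYL1 and ARHGEF15) and LNCaP ERG with 4 (NOS3, ANGPT2, LIPG and ADGRF5). In VCaP shCt, SOX17 was placed on 1 read and ARHGEF15 on 8 and 2 reads. Within SW13, 30 of the 41 members with any read were highest in BRG1 ERG, a place held by 21.4% of the 22949 genes with a read in SW13. A total of 15 members had a read in every library. SOX17, a vessel transcription factor, had 1 read in all 24 libraries together. Of the genes that define endothelial cells, CDH5, PECAM1 and VWF had no read in SW13 GFP Empty, whereas TEK averaged 4.35 RPKM there. KDR and TIE1 also had reads in that group. In VCaP shCt, CDH5, TIE1 and TEK had no read, KDR had 1 and 0, PECAM1 5 and 1, and VWF 31 and 34. CDH5 had none in VCaP shERG either. CLEC14A, an endothelial lectin, had at most 7 reads in a library and MMRN1, a platelet and endothelial adhesive protein, likewise at most 7.

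**Figure D1:**
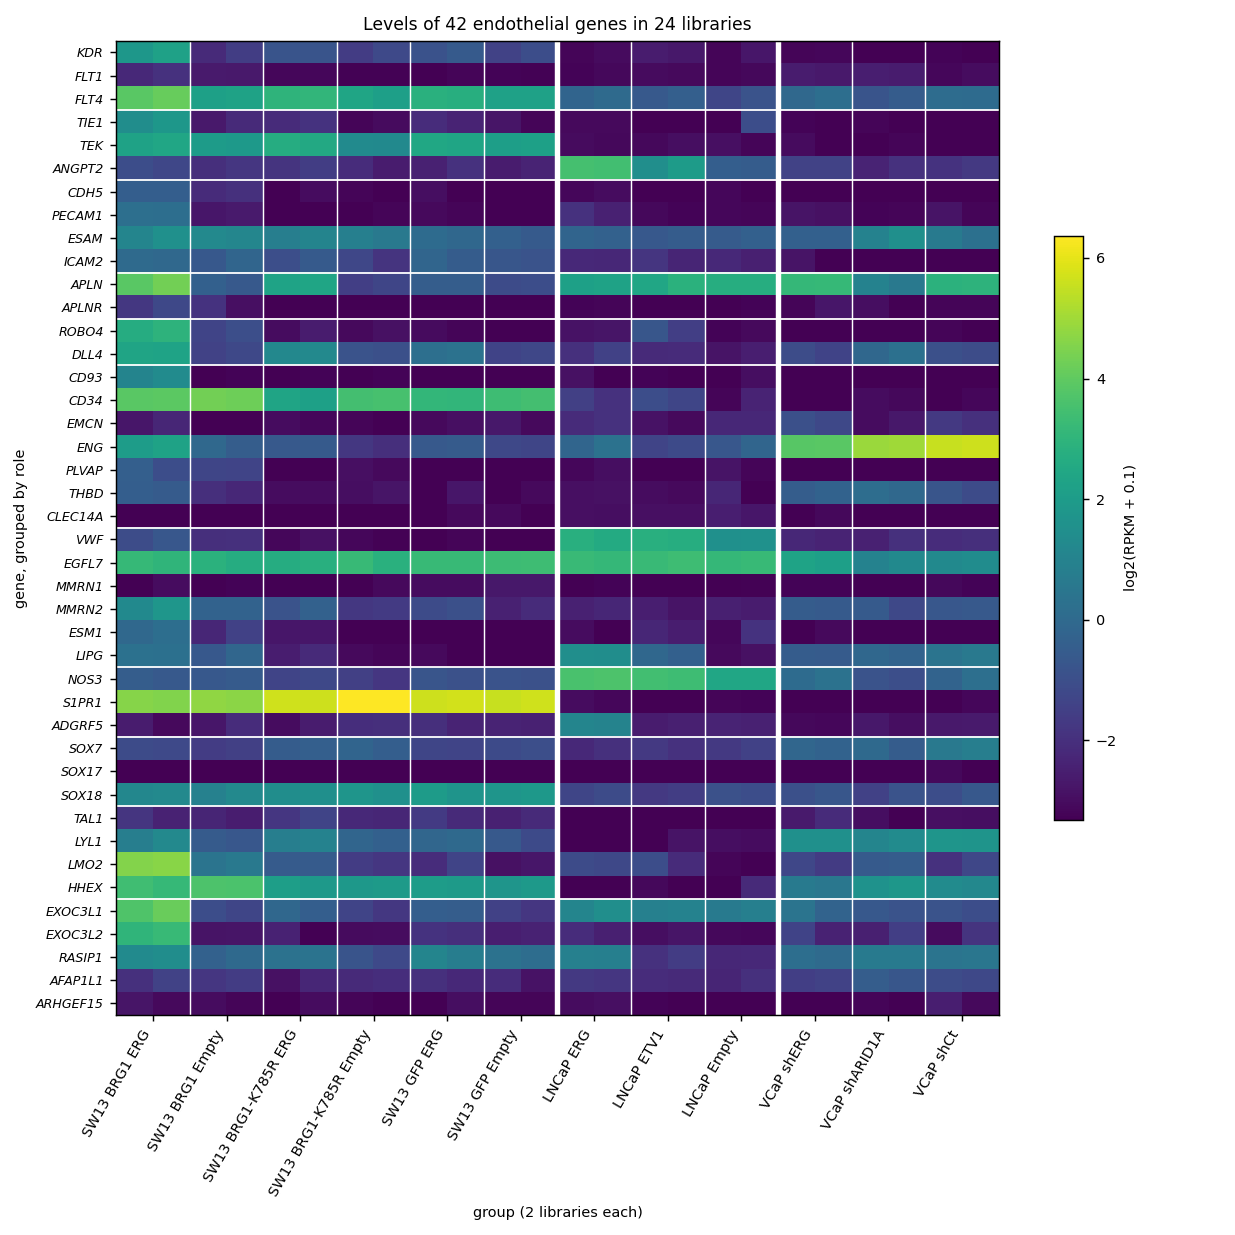
Level of each of the 42 genes (rows, grouped by role) in each of the 24 libraries (columns, 2 per group), as the color of log2(RPKM + 0.1), the authors' RPKM with a pseudocount of 0.1. The brightest stretch of many rows is the pair of SW13 BRG1 ERG columns, where 23 genes reached a mean of 1 RPKM, against 9 genes in the BRG1 Empty columns beside it.

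The order of the members by RPKM changed with ERG. In SW13 BRG1 ERG the highest means were those of LMO2 (24.4 RPKM), S1PR1 (23.4 RPKM), APLN (17.2 RPKM), FLT4 (16.0 RPKM) and EXOC3L1 (15.4 RPKM). In SW13 BRG1 Empty they were those of S1PR1 (26.2 RPKM), CD34 (19.1 RPKM), HHEX (12.4 RPKM), EGFL7 (6.73 RPKM) and FLT4 (4.54 RPKM). S1PR1, a receptor for sphingosine-1-phosphate, and CD34, a surface sialomucin, were therefore read in this adrenal line without ERG. In LNCaP ERG the highest were NOS3 (12.3 RPKM) and ANGPT2 (11.1 RPKM), against EGFL7 (8.91 RPKM) and APLN (6.41 RPKM) in LNCaP Empty. In VCaP one member stood far above the rest, the TGF-beta co-receptor endoglin (ENG), at 14.6 RPKM in shERG and 48.3 RPKM in shCt. These are bulk samples, in which fewer cells with a transcript and less of it per cell cannot be told apart.

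The 3 receptors of VEGF differed widely in how they moved with ERG beside BRG1. KDR, the main signaling receptor of blood vessels, had 20.6 and 27.7 CPM in BRG1 ERG, against 0.752 and 1.45 CPM in BRG1 Empty. That is a log2 change of 4.51 ± 0.22 (SE), or 22.8-fold, with an adjusted p of 2.17e-17 in edgeR's quasi-likelihood test over 17018 genes. FLT4, the receptor of lymphatic vessels, was high in both groups, with 94.0 and 110 CPM in BRG1 ERG, against 28.4 and 29.6 CPM in BRG1 Empty (3.63-fold, adjusted p = 9.07e-18). FLT1, which binds VEGF with little signaling of its own, stayed under 2 CPM, with 1.4 and 1.97 CPM in BRG1 ERG, against 0.752 and 0.723 CPM in BRG1 Empty (2.35-fold, adjusted p = 0.00671). The groups did not overlap for any of the 3. The call of FLT1 was lost in DESeq2, without BRG1 Empty replicate 2 (adjusted p = 0.0615) and without BRG1 ERG replicate 2 (adjusted p = 0.106).

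TIE1, the orphan partner of TEK, had 10.4 and 13.6 CPM in BRG1 ERG, against 0.226 and 0.482 CPM in BRG1 Empty, a log2 change of 5.12 ± 0.29 (34.7-fold, adjusted p = 1.23e-15). TEK itself was present in both groups and moved little, with 22.2 and 24.7 CPM in BRG1 ERG, against 18.6 and 17.3 CPM in BRG1 Empty (1.35-fold, adjusted p = 0.000731). ANGPT2, the ligand that loosens vessels by competing at TEK, had 2.04 and 1.65 CPM in BRG1 ERG, against 0.79 and 1.0 CPM in BRG1 Empty (2.12-fold, adjusted p = 0.00849), a call that DESeq2 did not make and that was lost without BRG1 Empty replicate 1 (adjusted p = 0.0901) or BRG1 ERG replicate 1 (adjusted p = 0.0782). All 3 were higher in both ERG libraries.

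Of the junction and adhesion genes, 2 of 4 rose. PECAM1, the adhesion protein CD31 that joins endothelial cells, had 4.72 and 4.53 CPM in BRG1 ERG (118 and 115 reads), against 0.226 and 0.281 CPM in BRG1 Empty (6 and 7 reads; 18.5-fold, adjusted p = 7.27e-11). CDH5, the VE-cadherin of endothelial junctions, had 2.68 and 2.68 CPM in BRG1 ERG, against 0.527 and 0.643 CPM in BRG1 Empty (4.7-fold, adjusted p = 1.08e-05). Both groups lay clear of each other for these genes, although CDH5 stayed low in absolute terms. ESAM, a tight-junction protein, had 3.76 and 5.2 CPM in BRG1 ERG, against 4.25 and 3.86 CPM in BRG1 Empty, and its groups overlapped (adjusted p = 0.455). ICAM2, a ligand for leukocyte integrins, had 1.4 and 1.34 CPM in BRG1 ERG, against 0.828 and 1.21 CPM in BRG1 Empty (adjusted p = 0.245).

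All 4 genes of apelin signaling, guidance and Notch were called higher in BRG1 ERG. APLN, the peptide apelin that tip cells release, had 47.1 and 63.7 CPM in BRG1 ERG, against 2.22 and 1.77 CPM in BRG1 Empty (28.5-fold, adjusted p = 4.44e-22). Its receptor APLNR had 0.759 and 1.26 CPM in BRG1 ERG, against 0.639 and 0.121 CPM in BRG1 Empty (17 and 3 reads; 2.67-fold, adjusted p = 0.0287), and that call was lost in DESeq2, without BRG1 Empty replicate 2 (adjusted p = 0.378) and without BRG1 ERG replicate 2 (adjusted p = 0.253). ROBO4, a guidance receptor that steadies vessels, had 23.9 and 28.8 CPM in BRG1 ERG, against 1.13 and 1.53 CPM in BRG1 Empty (20.5-fold, adjusted p = 2.92e-18). DLL4, the Notch ligand of tip cells, had 17.0 and 16.6 CPM in BRG1 ERG, against 0.94 and 1.13 CPM in BRG1 Empty (16.7-fold, adjusted p = 3.17e-18). The 2 libraries of BRG1 ERG lay above those of BRG1 Empty for all 4 genes.

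**Figure D2:**
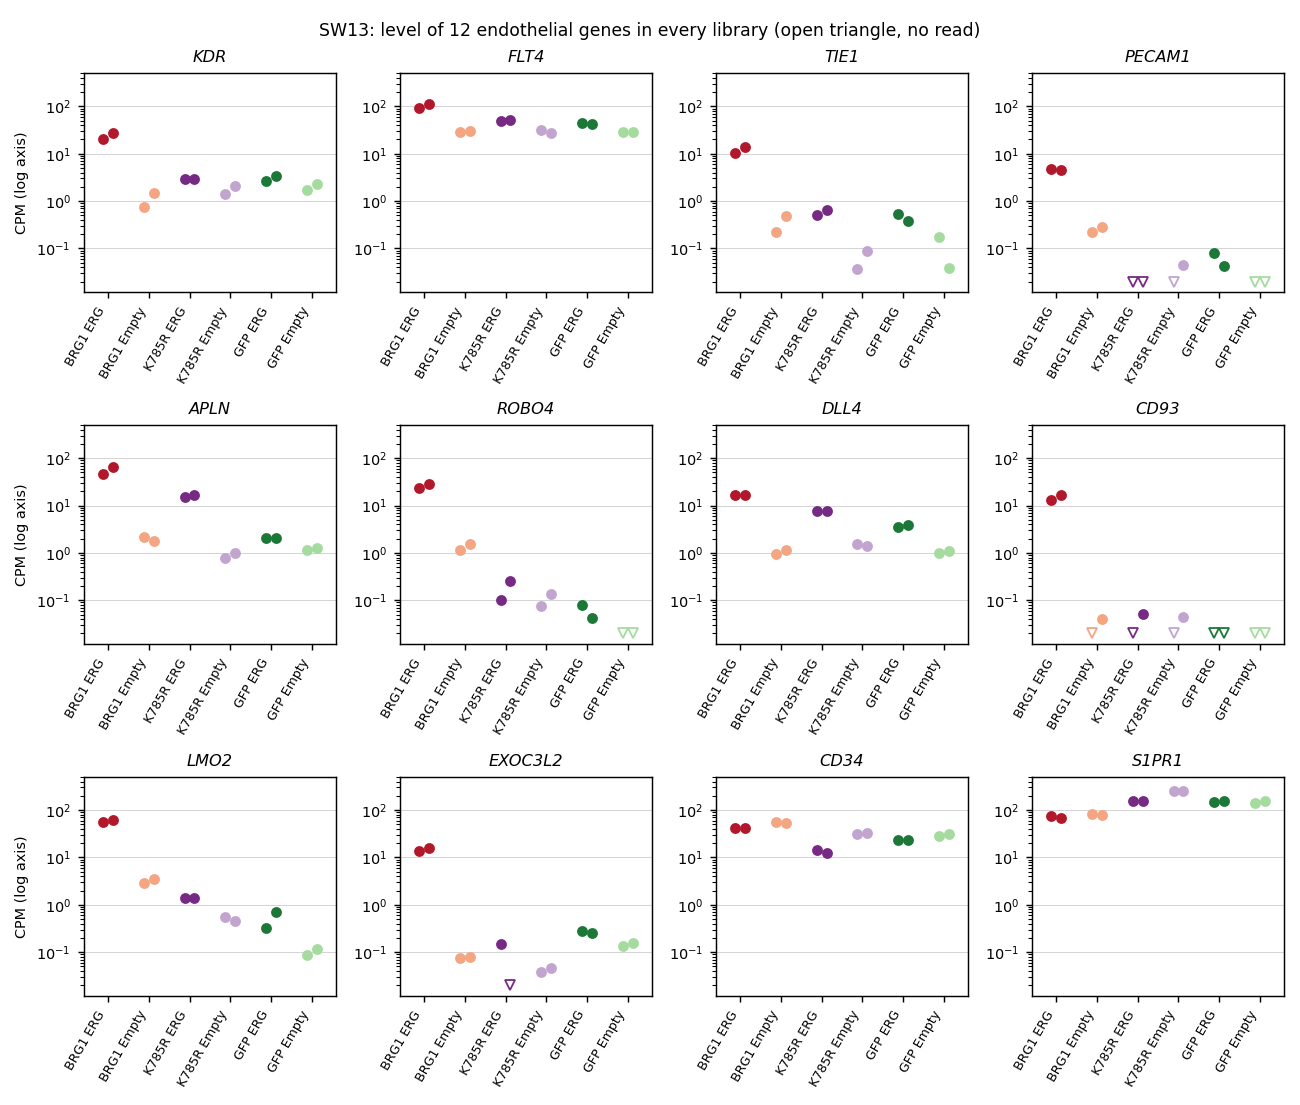
Level in CPM (log axis) of 12 endothelial genes in each of the 12 SW13 libraries, 1 point per library, 2 per group; an open triangle at 0.02 CPM stands for no read. For KDR, TIE1, PECAM1, ROBO4, CD93, LMO2 and EXOC3L2 the BRG1 ERG pair lies far above the other 5 pairs, APLN and DLL4 also stand above their Empty pair in BRG1-K785R ERG, and CD34 and S1PR1 are high in all 6 groups.

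Among surface glycoproteins the widest gap was that of CD93, a C-type lectin of sprouting vessels. It had 327 and 417 reads in BRG1 ERG (13.1 and 16.4 CPM), against 0 and 1 read in BRG1 Empty. The ratio of 760 has a 95% counting interval of 136 to 30000, since 1 read stands below the line (adjusted p = 5.15e-17). Endoglin (ENG) had 13.8 and 16.2 CPM in BRG1 ERG, against 2.97 and 2.17 CPM in BRG1 Empty (5.99-fold, adjusted p = 9.62e-14). Thrombomodulin (THBD), which turns thrombin into an anticoagulant, had 2.6 and 2.36 CPM in BRG1 ERG, against 0.602 and 0.442 CPM in BRG1 Empty (4.84-fold, adjusted p = 1.37e-05). CD34 went the other way, with 41.1 and 42.2 CPM in BRG1 ERG, against 55.0 and 52.2 CPM in BRG1 Empty, a log2 change of -0.32 ± 0.08 (adjusted p = 0.00228). PLVAP, the diaphragm protein of fenestrae, had 1.52 and 0.906 CPM in BRG1 ERG, against 0.715 and 0.683 CPM in BRG1 Empty (adjusted p = 0.0903). S1PR1 had 73.3 and 69.5 CPM in BRG1 ERG, against 82.0 and 77.6 CPM in BRG1 Empty, and was not called (adjusted p = 0.229). EMCN, a sialomucin of capillaries and veins, had 5 and 11 reads in BRG1 ERG and none in BRG1 Empty. With a floor of 3 reads per library this is at least 2.71-fold higher, and the gene was too low to be tested.

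Of the secreted and matrix proteins, VWF, the clotting factor stored in endothelial granules, had 3.32 and 4.61 CPM in BRG1 ERG, against 1.28 and 1.37 CPM in BRG1 Empty (3.09-fold, adjusted p = 2.9e-05). MMRN2, which coats vessels and binds CD93, had 9.75 and 13.7 CPM in BRG1 ERG, against 3.01 and 3.05 CPM in BRG1 Empty (3.99-fold, adjusted p = 3.21e-10). ESM1, a proteoglycan of tip cells, had 1.8 and 2.13 CPM in BRG1 ERG, against 0.226 and 0.563 CPM in BRG1 Empty (6 and 14 reads; 5.14-fold, adjusted p = 2.74e-05). EGFL7, a matrix protein of growing vessels, was present everywhere and moved little, with 23.1 and 20.6 CPM in BRG1 ERG, against 18.4 and 16.2 CPM in BRG1 Empty (1.3-fold, adjusted p = 0.00563). Of the 2 enzymes, 1 was called. LIPG, the endothelial lipase, had 4.68 and 4.57 CPM in BRG1 ERG, against 2.22 and 3.38 CPM in BRG1 Empty (1.71-fold, adjusted p = 0.00947). NOS3, the nitric oxide synthase of vessels, had 3.24 and 2.84 CPM in BRG1 ERG, against 2.71 and 3.01 CPM in BRG1 Empty (adjusted p = 0.644). The call of EGFL7 was lost without BRG1 Empty replicate 2 (adjusted p = 0.112) or BRG1 ERG replicate 1 (adjusted p = 0.069). That of LIPG was lost without BRG1 Empty replicate 1 (adjusted p = 0.192) and in DESeq2.

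The transcription regulators of blood and vessel did not move together. LMO2, the bridging protein of a blood and vessel transcription complex, had 57.3 and 60.7 CPM in BRG1 ERG, against 2.93 and 3.46 CPM in BRG1 Empty (19.1-fold, adjusted p = 3.08e-22). LYL1, a helix-loop-helix factor that works with LMO2, had 3.0 and 4.02 CPM in BRG1 ERG, against 1.05 and 0.924 CPM in BRG1 Empty (3.64-fold, adjusted p = 6.6e-07). Its relative TAL1 had 0.919 and 0.473 CPM in BRG1 ERG, against 0.527 and 0.362 CPM in BRG1 Empty, and the groups overlapped (adjusted p = 0.248). HHEX, a homeobox factor of early blood and vessel, was lower, with 18.5 and 15.7 CPM in BRG1 ERG, against 22.4 and 21.3 CPM in BRG1 Empty (log2 change -0.31 ± 0.11, adjusted p = 0.0245), a call that DESeq2 did not make. It was lost without either BRG1 Empty library (adjusted p = 0.151 and 0.0548) or BRG1 ERG replicate 2 (adjusted p = 0.266). The vessel factors SOX7 and SOX18 were not called, at adjusted p = 0.152 and 0.536.

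Genes of trafficking and the cytoskeleton held the largest folds after CD93. EXOC3L2, a relative of an exocyst subunit tied to VEGF receptor delivery, had 349 and 402 reads in BRG1 ERG (13.9 and 15.8 CPM), against 2 and 2 reads in BRG1 Empty (185-fold, adjusted p = 3.67e-18). Its relative EXOC3L1 had 32.3 and 44.5 CPM in BRG1 ERG, against 0.978 and 0.764 CPM in BRG1 Empty (45.0-fold, adjusted p = 9.87e-21). RASIP1, a RAS-binding protein needed for vessel tubes, had 7.91 and 8.51 CPM in BRG1 ERG, against 2.33 and 2.97 CPM in BRG1 Empty (3.2-fold, adjusted p = 4.15e-09). AFAP1L1, an actin-binding protein, overlapped between the groups and was not called (adjusted p = 0.856), and ARHGEF15, a guanine nucleotide exchange factor, had 5 and 2 reads in BRG1 ERG and 3 and 1 reads in BRG1 Empty. ADGRF5, an adhesion G protein-coupled receptor, had 0.4 and 0.118 CPM in BRG1 ERG, against 0.301 and 0.804 CPM in BRG1 Empty (adjusted p = 0.158).

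Counted together, 25 of the 42 genes were called higher in BRG1 ERG than in BRG1 Empty and 2 lower, which is 59.5% and 4.76% of the 42, where 22.6% and 22.8% of the 17018 genes tested were called in those directions. At 2-fold or more, 22 were called higher (52.4% of the 42, against 3.91% of all genes tested). Of the other 15, 10 were tested and not called, and EMCN, SOX17, MMRN1, CLEC14A and ARHGEF15 were below the filter on low counts. The 37 tested members had a median log2 change of 1.63, where the median of all genes was 0. Members pass the filter through the group in which they are high, so this median describes only those that passed. Among the 40 members with a read in either group, both BRG1 ERG libraries lay above both BRG1 Empty libraries for 29 (72.5%), and below them for 3 (7.5%), against 27.0% and 35.2% of all genes with a read.

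Beside BRG1-K785R, 16 of the genes were called with ERG. APLN had 15.5 and 16.4 CPM in BRG1-K785R ERG, against 0.79 and 0.996 CPM in BRG1-K785R Empty (15.8-fold, adjusted p = 1.57e-16), the largest fold among the members called. DLL4 had 7.59 and 7.68 CPM in BRG1-K785R ERG, against 1.54 and 1.4 CPM in BRG1-K785R Empty (4.52-fold, adjusted p = 3.29e-11). TEK had 29.7 and 26.8 CPM in BRG1-K785R ERG, against 11.4 and 11.2 CPM in BRG1-K785R Empty (2.19-fold, adjusted p = 1.33e-10), and FLT4 had 50.2 and 52.5 CPM, against 32.4 and 27.4 CPM (1.5-fold, adjusted p = 1.55e-06). These 4 genes were higher in both ERG libraries. KDR had 2.89 and 2.88 CPM in BRG1-K785R ERG, against 1.39 and 2.08 CPM in BRG1-K785R Empty, and was not called (adjusted p = 0.0795). ROBO4 had 2 and 5 reads in BRG1-K785R ERG, against 2 and 3 reads in BRG1-K785R Empty, and CD93 and PECAM1 had at most 1 read in any of the 4 libraries. CD34 and S1PR1, which were high without ERG, fell. CD34 had 14.1 and 12.6 CPM in BRG1-K785R ERG, against 30.7 and 32.9 CPM in BRG1-K785R Empty (log2 change -1.44 ± 0.1, adjusted p = 1.53e-13). S1PR1 had 156 and 152 CPM in BRG1-K785R ERG, against 250 and 252 CPM in BRG1-K785R Empty (log2 change -0.89 ± 0.07, adjusted p = 7.98e-12).

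Of the 42 genes, 12 were called higher in BRG1-K785R ERG and 4 lower (28.6% and 9.52% of the 42), where 25.3% and 30.9% of all genes tested were. The share called higher lies near that of all genes and says nothing particular of the members. At 2-fold or more, 11 were called higher (26.2% of the 42, against 7.64% of all genes tested). The other members called higher were TIE1, ENG, MMRN2, EXOC3L1, LYL1, LMO2, LIPG and RASIP1, all under 4 CPM in both ERG libraries. TIE1 rested on 10 and 13 reads in BRG1-K785R ERG and 1 and 2 reads in BRG1-K785R Empty, a ratio of 9.44 with a 95% counting interval of 2.85 to 49.1. The members called lower were CD34, S1PR1, EGFL7 and ADGRF5, and EGFL7 was lost without BRG1-K785R Empty replicate 1 (adjusted p = 0.0927) and ADGRF5 without BRG1-K785R ERG replicate 1 (adjusted p = 0.0841). LIPG, with 6 and 10 reads in BRG1-K785R ERG and 2 and 1 in BRG1-K785R Empty, was lost without BRG1-K785R Empty replicate 2 (adjusted p = 0.0689) or BRG1-K785R ERG replicate 2 (adjusted p = 0.103). With library totals as the scale, all genes shifted by a median log2 of 0.171, and 14 members were called higher and 4 lower.

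Beside GFP, where SMARCA4 was low, 10 of the genes were called with ERG. DLL4 had 3.58 and 3.96 CPM in GFP ERG, against 0.98 and 1.1 CPM in GFP Empty (3.47-fold, adjusted p = 5.33e-07). MMRN2 had 1.5 and 1.75 CPM in GFP ERG, against 0.356 and 0.548 CPM in GFP Empty (3.4-fold, adjusted p = 0.000565). FLT4 had 44.5 and 42.6 CPM in GFP ERG, against 29.3 and 29.3 CPM in GFP Empty (1.43-fold, adjusted p = 8.67e-05). EXOC3L1 had 1.59 and 1.54 CPM in GFP ERG, against 0.668 and 0.47 CPM in GFP Empty (2.66-fold, adjusted p = 0.00284). APLN, which ERG raised beside both forms of BRG1, had 2.03 and 2.05 CPM in GFP ERG, against 1.16 and 1.25 CPM in GFP Empty, and missed the threshold (adjusted p = 0.0511). KDR had 2.64 and 3.42 CPM in GFP ERG, against 1.69 and 2.35 CPM in GFP Empty (adjusted p = 0.135). TIE1 had 13 and 9 reads in GFP ERG, against 4 and 1 reads in GFP Empty (4.04-fold, adjusted p = 0.0256). CD93, ESM1, PLVAP and APLNR had no read in any of the 4 GFP libraries. In all, 9 members were called higher in GFP ERG and 1, CD34, lower (21.4% and 2.38% of the 42), where 12.6% and 13.5% of all genes tested were. Of the 9, 5 passed 2-fold (11.9% of the 42, against 1.4% of all genes tested). On the scale of library totals, 11 were called higher and 1 lower. Without GFP Empty replicate 2 the number of members called was 4, against 10 with all libraries, and without GFP ERG replicate 1 it was 6. DLL4, FLT4 and MMRN2 kept their call without any 1 library, and TIE1 lost it without GFP Empty replicate 2 (adjusted p = 0.297).

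**Figure D3:**
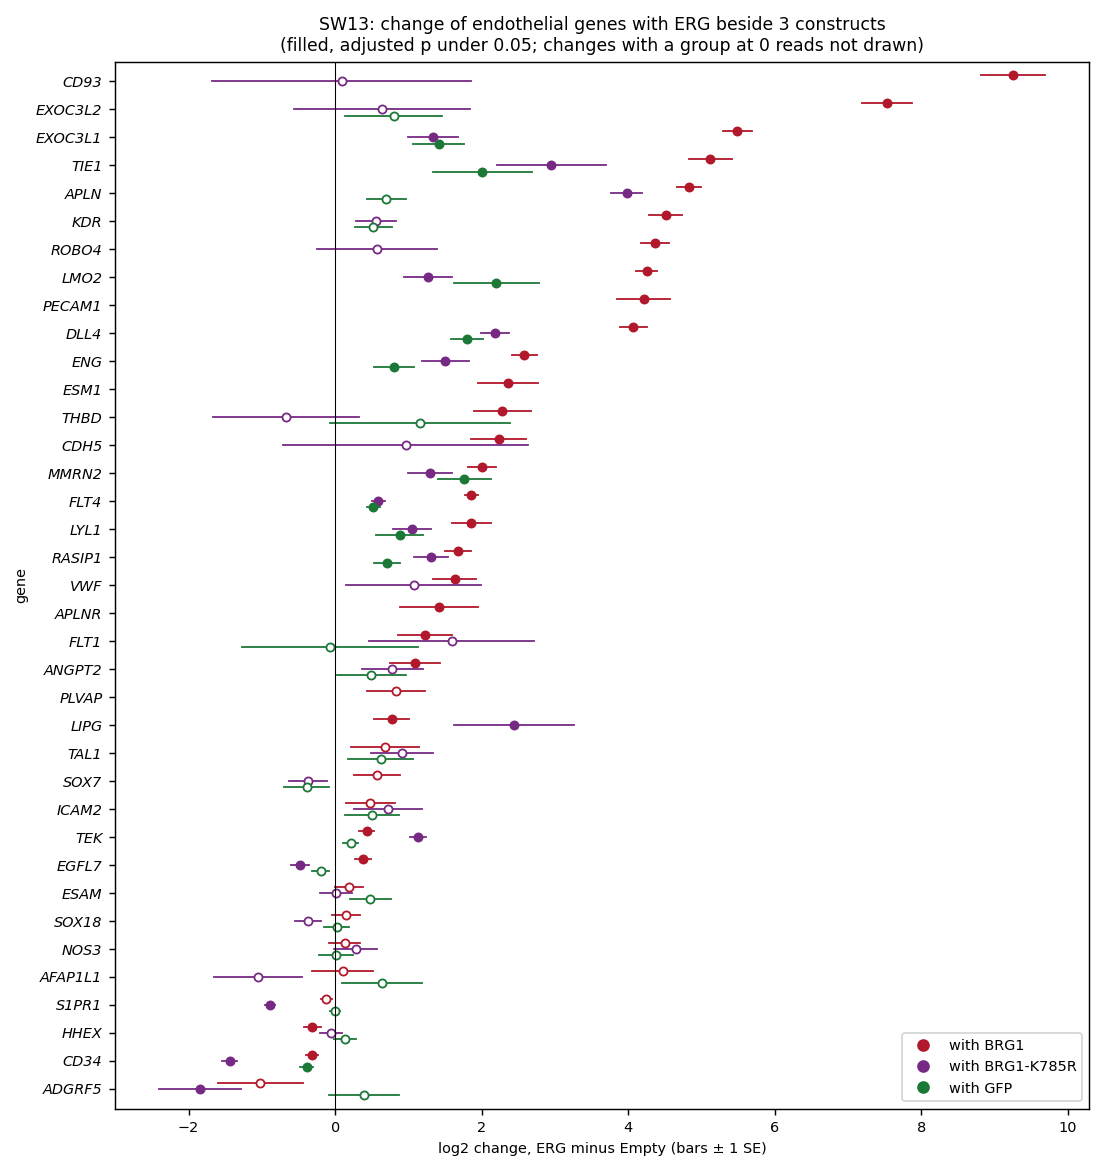
Log2 change of each tested member with ERG minus Empty in SW13, ± 1 SE, beside BRG1 (red), BRG1-K785R (purple) and GFP (green), 2 libraries per group; filled points passed the adjusted p of 0.05, and changes with a group at 0 reads are not drawn. For KDR, FLT4, EXOC3L1, EXOC3L2, LMO2 and DLL4 the red point lies right of both others, while for CD34 and S1PR1 the purple point lies furthest left.

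Whether ERG did more beside BRG1 than beside GFP was tested as a difference of the log2 changes. That difference was called above 0 for 11 members (26.2% of the 42), where 19.1% of all genes tested were called above 0 and 18.7% below. At 2-fold or more it was called above 0 for 9 (21.4% of the 42, against 1.87% of all genes tested). It was 4.13 ± 0.35 for APLN (adjusted p = 1.49e-10), 4.08 ± 0.5 for EXOC3L1 (adjusted p = 1.65e-07) and 3.99 ± 0.36 for KDR (adjusted p = 4.65e-10). DLL4, which ERG raised beside all 3 constructs, differed by 2.27 ± 0.33 (adjusted p = 2.11e-06) and FLT4 by 1.34 ± 0.13 (adjusted p = 1.1e-09). EXOC3L2, TIE1, EGFL7, ENG, LMO2 and RASIP1 were the other 6, of which TIE1 lost its call without GFP Empty replicate 1 (adjusted p = 0.515) and LMO2 without 7 of the 8 libraries in turn (adjusted p from 0.052 to 0.303). ROBO4, CD93, PECAM1 and CDH5 were not called here, and with 0 reads in a GFP group the change there has no finite estimate. Scaled to library totals, all genes shifted by a median log2 of -0.118, and 10 members were called above 0 and 1 below. Against BRG1-K785R, the difference was called above 0 for 14 members and below 0 for TEK (33.3% and 2.38% of the 42, against 25.8% and 20.4% of all genes tested). At 2-fold or more it was called above 0 for 11 (26.2% of the 42, against 3.24% of all genes tested). It was 3.95 ± 0.38 for KDR (adjusted p = 6.79e-10), 2.99 ± 0.42 for LMO2 (adjusted p = 8.32e-07) and 0.86 ± 0.33 for APLN (adjusted p = 0.0321). CD34 and S1PR1, which fell beside BRG1-K785R, differed by 1.12 ± 0.13 (adjusted p = 2.89e-08) and 0.78 ± 0.11 (adjusted p = 4.89e-07). The call of APLN was lost without either BRG1-K785R Empty library (adjusted p = 0.0557 and 0.193), without BRG1 Empty replicate 2 (adjusted p = 0.121) and without BRG1 ERG replicate 2 (adjusted p = 0.0864). Scaled to library totals, all genes shifted by a median log2 of -0.18, and 11 members were called above 0 and 2 below. These 2 differences share the BRG1 ERG and BRG1 Empty libraries.

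BRG1 also changed the genes with no ERG present. In BRG1 Empty, LMO2 had 2.93 and 3.46 CPM, against 0.0891 and 0.118 CPM in GFP Empty (26.6-fold, adjusted p = 2.04e-12). LIPG had 59 and 84 reads in BRG1 Empty and ROBO4 30 and 38 reads, against no read of either gene in GFP Empty, which makes them at least 22.3-fold and at least 10.6-fold higher with a floor of 3 reads per library. VWF, at least 10.5-fold higher, PLVAP, at least 5.57-fold, CDH5, at least 4.66-fold, and PECAM1, at least 2.02-fold, likewise had reads in BRG1 Empty and none in GFP Empty. HHEX had 22.4 and 21.3 CPM in BRG1 Empty, against 5.61 and 6.35 CPM in GFP Empty (3.33-fold, adjusted p = 3.35e-13), and CD34 had 55.0 and 52.2 CPM, against 28.6 and 30.8 CPM (1.64-fold, adjusted p = 1.36e-08). KDR and S1PR1 were lower: KDR had 0.752 and 1.45 CPM in BRG1 Empty, against 1.69 and 2.35 CPM in GFP Empty (log2 change -1.03 ± 0.3, adjusted p = 0.00382), a call lost without BRG1 Empty replicate 1 or GFP Empty replicate 2 (adjusted p = 0.109 each). S1PR1 had 82.0 and 77.6 CPM in BRG1 Empty, against 143 and 154 CPM in GFP Empty (log2 change -1.03 ± 0.08, adjusted p = 2.31e-13). Of the 42 genes, 17 were called higher and 7 lower (40.5% and 16.7% of the 42), where 32.2% and 30.2% of all genes tested were, and 16 were called higher at 2-fold or more (38.1% of the 42, against 12.7% of all genes tested). With library totals as the scale, all genes shifted by a median log2 of 0.165, and 20 members were called higher and 4 lower.

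Between BRG1-K785R Empty and GFP Empty, 7 members were called higher with BRG1-K785R and 4 lower (16.7% and 9.52% of the 42), where 32.3% and 26.4% of all genes tested were. Without BRG1-K785R Empty replicate 2 the number called was 7, against 11 with all libraries. S1PR1 had 250 and 252 CPM in BRG1-K785R Empty, against 143 and 154 CPM in GFP Empty (1.79-fold, adjusted p = 1.94e-11). LMO2 had 15 and 10 reads in BRG1-K785R Empty, against 2 and 3 reads in GFP Empty (5.01-fold, adjusted p = 0.000874). TEK, at 11.4 and 11.2 CPM in BRG1-K785R Empty and 20.4 and 21.1 CPM in GFP Empty, was lower (log2 change -0.79 ± 0.11, adjusted p = 1.41e-07). Set against BRG1-K785R Empty, BRG1 Empty had 21 members called higher and 7 lower (50.0% and 16.7% of the 42, against 32.6% and 34.1% of all genes tested). The 7 include KDR, FLT4, EGFL7 and DLL4, whose calls were lost with library totals as the scale, where all genes shifted by a median log2 of 0.221 and 21 members were called higher and 3 lower.

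The constructs were also compared with ERG present in each. LMO2 had 57.3 and 60.7 CPM in BRG1 ERG, against 0.325 and 0.71 CPM in GFP ERG (111-fold, adjusted p = 4.57e-25). ROBO4 had 599 and 732 reads in BRG1 ERG, against 2 and 1 reads in GFP ERG, a ratio of 427 with a 95% counting interval of 146 to 2070. CD93 was at least 119-fold higher in BRG1 ERG than in GFP ERG, where it had no read. PECAM1 had 118 and 115 reads in BRG1 ERG, against 2 and 1 reads in GFP ERG (ratio 74.8, 25.3 to 365). KDR was 7.78-fold higher (adjusted p = 5.28e-15) and TIE1 25.5-fold (adjusted p = 1.53e-15). Altogether 27 members were called higher in BRG1 ERG than in GFP ERG and 3 lower (64.3% and 7.14% of the 42), where 30.4% and 28.5% of all genes tested were. At 2-fold or more, 25 were called higher (59.5% of the 42, against 11.2% of all genes tested). The 3 that were lower are S1PR1, SOX18 and ADGRF5, and S1PR1 had 73.3 and 69.5 CPM in BRG1 ERG, against 151 and 157 CPM in GFP ERG. Against BRG1-K785R ERG, 28 members were called higher and 3 lower (66.7% and 7.14% of the 42), where 24.3% and 22.6% of all genes tested were, and APLN, at 47.1 and 63.7 CPM in BRG1 ERG and 15.5 and 16.4 CPM in BRG1-K785R ERG, was 3.52-fold higher (adjusted p = 3.19e-14). Both comparisons use the same BRG1 ERG libraries.

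In LNCaP, ERG raised 11 of the genes, among them ANGPT2, LIPG, ADGRF5 and RASIP1. ANGPT2 had 59.5 and 57.0 CPM in ERG, 14.0 and 20.5 CPM in ETV1 and 3.38 and 3.21 CPM in Empty. It was 17.8-fold higher with ERG than with Empty (adjusted p = 1.11e-06), 5.36-fold with ETV1 (adjusted p = 2.73e-05), and 3.32-fold higher with ERG than with ETV1 (adjusted p = 0.000121). LIPG had 11.2 and 10.7 CPM in ERG, 3.53 and 2.83 CPM in ETV1, and 3 and 6 reads (0.0756 and 0.143 CPM) in Empty. For both genes the 3 groups stood apart, with ETV1 between the others. ADGRF5 had 12.1 and 11.6 CPM in ERG, 0.401 and 0.484 CPM in ETV1 and 0.579 and 0.524 CPM in Empty, and was 26.1-fold higher with ERG than with ETV1 (adjusted p = 1.88e-06). RASIP1 had 5.86 and 5.66 CPM in ERG, 0.526 and 0.764 CPM in ETV1 and 0.378 and 0.381 CPM in Empty, which is 15.2-fold for ERG over Empty (adjusted p = 1.16e-05). The ETV1 change of these 2 genes over Empty was not called, at adjusted p = 0.554 for ADGRF5 and 0.0763 for RASIP1.

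VWF and NOS3 rose with both factors. VWF had 61.0 and 52.6 CPM in ERG, 59.8 and 56.5 CPM in ETV1 and 25.0 and 25.6 CPM in Empty (2.26-fold with ERG, adjusted p = 1.62e-05, and 2.36-fold with ETV1, adjusted p = 1.24e-05). NOS3 had 60.9 and 64.8 CPM in ERG, 55.5 and 52.5 CPM in ETV1 and 26.5 and 26.8 CPM in Empty (2.37-fold with ERG, adjusted p = 3e-06, and 2.08-fold with ETV1, adjusted p = 6.68e-06). ERG minus ETV1 was a log2 difference of -0.06 ± 0.07 for VWF and 0.19 ± 0.06 for NOS3, neither of them called (adjusted p = 0.646 and 0.0595). FLT4 had 4.96 and 5.89 CPM in ERG, 3.58 and 4.31 CPM in ETV1 and 1.99 and 2.93 CPM in Empty (2.21-fold with ERG, adjusted p = 0.00372). LMO2 had 34 and 23 reads in ERG and 37 and 12 in ETV1, against 1 and 0 in Empty, which gives a ratio of 68.4 for ERG (95% counting interval 11.8 to 2750) and of 50.5 for ETV1 (8.66 to 2040). ROBO4 had 0.155 and 0.17 CPM in ERG, 1.93 and 0.943 CPM in ETV1 and 0.0252 and 0.0714 CPM in Empty. It was 28.3-fold higher with ETV1 than with Empty (adjusted p = 0.000627), and lower with ERG than with ETV1 (log2 difference -3.15 ± 0.52, adjusted p = 0.00466), a call lost without ETV1 replicate 1 (adjusted p = 0.0517). CD34 had 28 and 13 reads in ERG, 44 and 34 in ETV1 and 1 and 11 in Empty, with an adjusted p of 0.0121 for ETV1 over Empty (6.78-fold) and of 0.0523 for ERG over Empty (4.01-fold). ERG minus ETV1 was not called for CD34 (adjusted p = 0.383), and the ETV1 call was lost without Empty replicate 1 (adjusted p = 0.0587) or either ETV1 library (adjusted p = 0.089 and 0.0668). ENG had 2.71 and 3.99 CPM in ERG, 1.03 and 1.22 CPM in ETV1 and 1.79 and 2.76 CPM in Empty, and was lower with ETV1 than with Empty (log2 change -0.98 ± 0.29, adjusted p = 0.0367). That call was lost in DESeq2, without Empty replicate 2 (adjusted p = 0.239) and without either ETV1 library (adjusted p = 0.172 and 0.113). APLN, the gene most raised by ERG beside BRG1-K785R in SW13, was lower here, with 14.3 and 15.1 CPM in ERG, against 20.6 and 20.7 CPM in Empty (log2 change -0.49 ± 0.13, adjusted p = 0.02). That call was lost without each of the 4 libraries in turn (adjusted p from 0.0522 to 0.104).

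**Figure D4:**
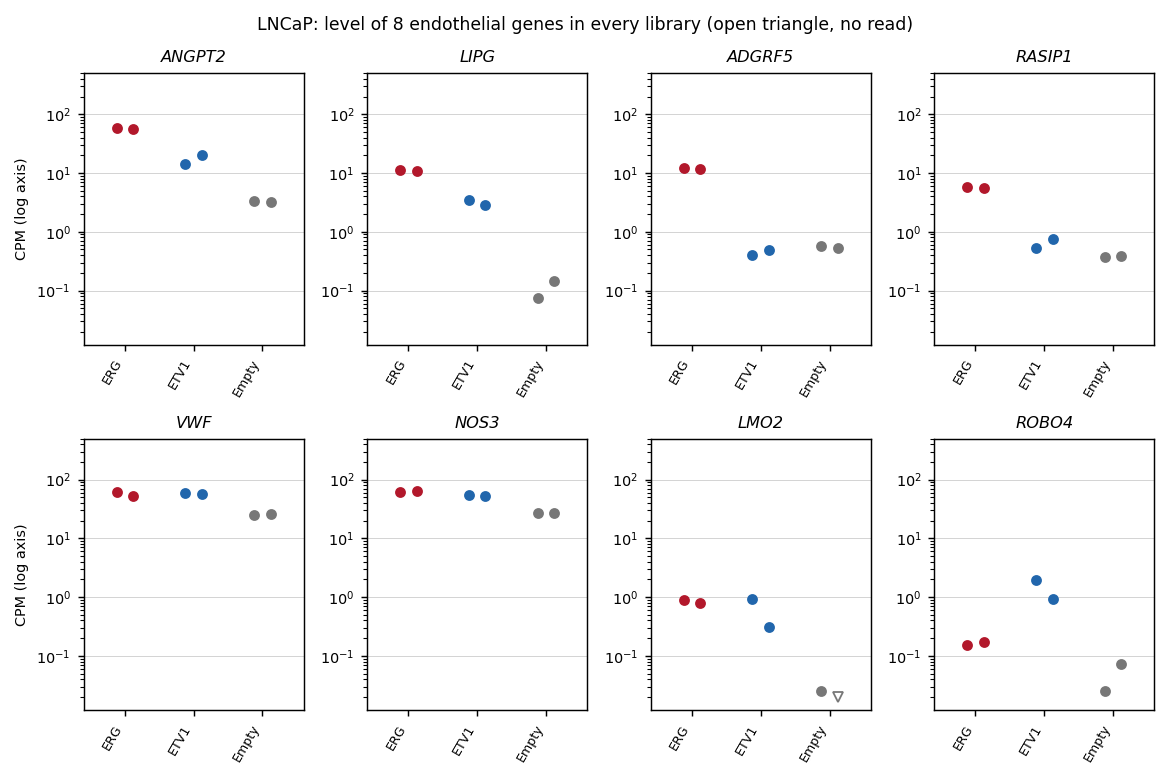
Level in CPM (log axis) of 8 endothelial genes in each LNCaP library with ERG, ETV1 or the empty vector, 1 point per library; an open triangle at 0.02 CPM stands for no read. ANGPT2 and LIPG step down over the 3 groups, ADGRF5 and RASIP1 are high with ERG, VWF and NOS3 stand above 50 CPM with either factor, and ROBO4 is highest with ETV1.

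Counted together, 11 members were called higher in LNCaP ERG than in Empty and APLN lower (26.2% and 2.38% of the 42), where 15.4% and 14.3% of all 16993 genes tested were. At 2-fold or more, 10 were called higher (23.8% of the 42, against 3.22% of all genes tested). The 23 members that passed the filter on low counts had a median log2 change of 1.14, which describes only those 23 and not the 19 others. The 11 also include PECAM1, with 28 and 11 reads in ERG and 2 and 2 in Empty, EXOC3L1 and DLL4. PECAM1 was lost without ERG replicate 1 (adjusted p = 0.0653) or either Empty library (adjusted p = 0.0507 and 0.0509). EXOC3L1 and DLL4 were lost in DESeq2, without ERG replicate 2 (adjusted p = 0.19 and 0.152) and without either Empty library (adjusted p from 0.0624 to 0.185). With ETV1, 8 members were called higher than in Empty and 2, EMCN and ENG, lower (19.0% and 4.76% of the 42), where 13.2% and 12.9% of all genes tested were. DESeq2 called 7 higher and neither of the 2 lower, and the call of EMCN was also lost without each of the 4 libraries in turn (adjusted p from 0.0503 to 0.147). Without ETV1 replicate 2 the number called was 6, against 10 with all libraries. Between ERG and ETV1, 7 members were called higher with ERG and 2 lower (16.7% and 4.76% of the 42, against 7.87% and 6.5% of all genes tested), and the number called was 5, against 9 with all libraries, without either ETV1 library. The ERG and ETV1 comparisons share the Empty libraries. In Empty replicate 2, TIE1 had 65 reads, against 0 in Empty replicate 1, and ESM1 had 15 reads, against 1; KDR had 13 reads, against 2. TIE1 and ESM1 were below the filter and KDR was not called.

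In VCaP the genes did not share a direction when ERG was reduced. ENG had 49.1 and 51.2 CPM in shERG, 102 and 108 CPM in shARID1A and 159 and 171 CPM in shCt. Its log2 change was -1.91 ± 0.05 with shERG (adjusted p = 5.51e-18) and -0.72 ± 0.05 with shARID1A (adjusted p = 2.52e-11), and the 3 groups did not overlap. LIPG had 2.53 and 2.48 CPM in shERG, 3.56 and 3.13 CPM in shARID1A and 5.09 and 5.93 CPM in shCt (log2 change -1.32 ± 0.18 with shERG, adjusted p = 1.03e-06). SOX7, a vessel factor of the SOXF group, had 2.66 and 2.4 CPM in shERG, 2.93 and 1.98 CPM in shARID1A and 4.66 and 5.47 CPM in shCt (log2 change -1.18 ± 0.2 with shERG, adjusted p = 1.93e-05). These 3 fell with either hairpin. ERG itself was also lower with shARID1A than with shCt (log2 change -0.58 ± 0.05, adjusted p = 7.31e-10). The part of ERG in the falls with shARID1A was not tested. EGFL7 rose with shERG, with 12.5 and 11.2 CPM in shERG, 4.78 and 5.93 CPM in shARID1A and 6.03 and 6.46 CPM in shCt (log2 change 0.74 ± 0.13 with shERG, adjusted p = 2.53e-05, and -0.3 ± 0.14 with shARID1A, adjusted p = 0.0738). APLN fell with shARID1A, with 27.6 and 28.9 CPM in shERG, 5.97 and 4.51 CPM in shARID1A and 23.8 and 24.5 CPM in shCt (log2 change -2.25 ± 0.11 with shARID1A, adjusted p = 5.1e-14, and 0.04 ± 0.09 with shERG, adjusted p = 0.668). ESAM and HHEX were lower with shERG and higher with shARID1A: HHEX had 2.59 and 2.32 CPM in shERG, 5.27 and 5.97 CPM in shARID1A and 4.31 and 3.86 CPM in shCt. Its rise with shARID1A (adjusted p = 0.0427) was lost in DESeq2, with a replicate block and without each of the 4 libraries in turn (adjusted p from 0.0514 to 0.203). The rise of ESAM with shARID1A (adjusted p = 0.0062) was lost without shARID1A replicate 2 (adjusted p = 0.143) or shCt replicate 2 (adjusted p = 0.0908). DLL4 had 1.3 and 0.968 CPM in shERG, 2.86 and 3.69 CPM in shARID1A and 1.41 and 1.3 CPM in shCt, and rose with shARID1A (log2 change 1.2 ± 0.25, adjusted p = 0.000253). THBD, at 4.08 and 3.52 CPM in shARID1A and 2.0 and 1.49 CPM in shCt, rose too (log2 change 1.06 ± 0.22, adjusted p = 0.000256). FLT4 fell with shARID1A, to 3.0 and 3.82 CPM, against 6.26 and 6.0 CPM in shCt (log2 change -0.92 ± 0.17, adjusted p = 5.26e-05).

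Of the 42 genes, 4 were called higher with shERG (FLT1, EGFL7, EMCN and EXOC3L1) and 7 lower (ESAM, ENG, SOX7, LYL1, LIPG, RASIP1 and HHEX), or 9.52% and 16.7% of the 42. Of all 16791 genes tested, 29.3% and 37.4% were called in those directions. With library totals as the scale, all genes shifted by a median log2 of 0.13, and 6 members were called higher and 5 lower. DESeq2 called 7 members in place of 11. With shARID1A, 7 members were called higher and 8 lower (16.7% and 19.0% of the 42), where 32.9% and 33.2% of all genes tested were. Only 23 of the 42 were tested in VCaP, and the other 19 were below the filter. The lower shares of the 42 therefore do not show that members moved less often than other genes. Both knockdowns share the shCt libraries. KDR, TIE1, TEK, CDH5, PECAM1, ROBO4, CD93 and CD34 were below the filter in VCaP, although its own ERG was at 330 and 354 CPM in shCt.

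**Figure D5:**
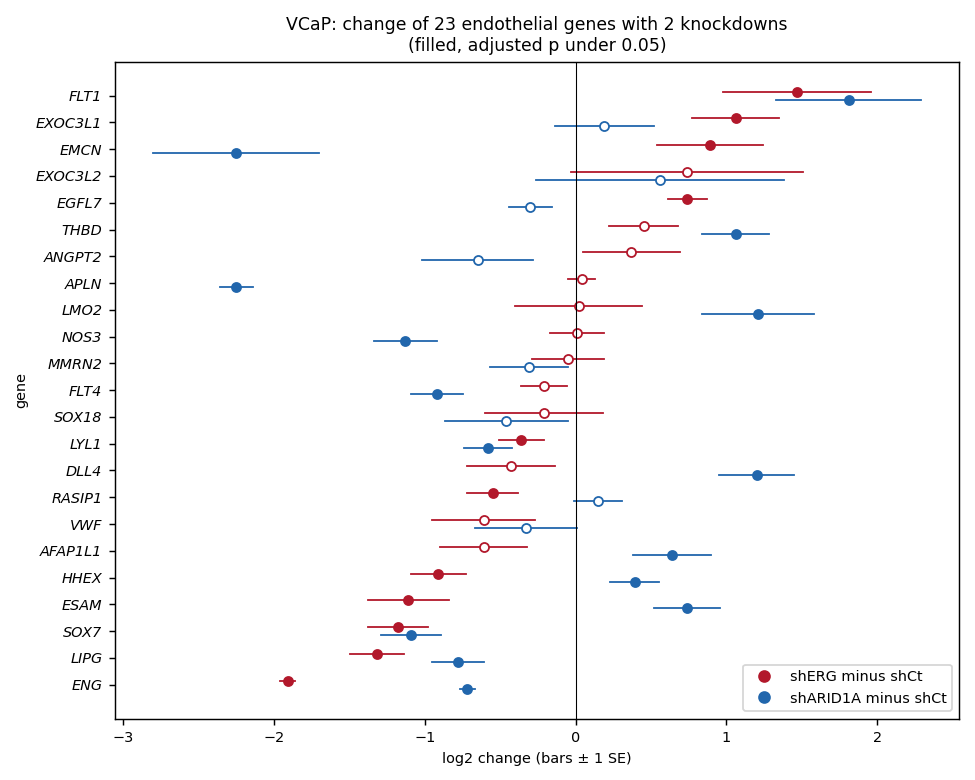
Log2 change of the 23 tested members in VCaP, ± 1 SE, for shERG minus shCt (red) and shARID1A minus shCt (blue), 2 libraries per group; filled points passed the adjusted p of 0.05. ENG lies furthest left for shERG at -1.91, and APLN and EMCN lie furthest left for shARID1A at -2.25 each.

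Some members moved with ERG in more than 1 line. Of the 11 called higher with ERG in LNCaP, 9 were also called higher with ERG beside BRG1 in SW13 (81.8% of the 11 and 36.0% of the 25), where 29.0% of the 2611 genes called higher in LNCaP were: FLT4, PECAM1, VWF, ANGPT2, EXOC3L1, LMO2, DLL4, LIPG and RASIP1. Of the 7 called lower with shERG in VCaP, 4 were called higher with ERG beside BRG1 in SW13 (ENG, LYL1, LIPG and RASIP1; 57.1% of the 7 and 16.0% of the 25), where 20.6% of all genes called lower with shERG were. Of the 4 called higher with shERG, 3 were also called higher with ERG beside BRG1 (FLT1, EGFL7 and EXOC3L1; 75.0% of the 4), where 23.9% of all genes called higher with shERG were. The members called with shERG thus ran in either direction. Of all 42 members, 59.5% were called higher with ERG beside BRG1. Overlaps of this size with that comparison therefore do not by themselves show agreement between lines. Of the 9 shared by LNCaP and SW13, PECAM1, EXOC3L1 and DLL4 lost their LNCaP call when some single libraries were left out. ANGPT2 and LIPG lost their SW13 call in the same way. Those calls of EXOC3L1, DLL4, ANGPT2 and LIPG were also lost in DESeq2. LIPG, RASIP1 and EXOC3L1 were called in all 3 lines, LIPG and RASIP1 lower with shERG and EXOC3L1 higher. EXOC3L1 had 3.02 and 1.9 CPM in VCaP shERG, against 1.14 and 0.956 CPM in shCt, and lost that call without shERG replicate 1 (adjusted p = 0.0897). LYL1 had 4.96 and 5.07 CPM in VCaP shERG, against 5.79 and 5.58 CPM in shCt (adjusted p = 0.0406), and lost its call in DESeq2, under every other scaling or filter tried and without each of the 4 libraries in turn (adjusted p from 0.0703 to 0.211). RASIP1 had 3.44 and 3.02 CPM in VCaP shERG, against 4.03 and 4.32 CPM in shCt (log2 change -0.55 ± 0.17, adjusted p = 0.00795), a call lost in DESeq2, with library totals as the scale and without shERG replicate 2 (adjusted p = 0.0546). KDR, TIE1, ROBO4 and CD93, which were high in SW13 BRG1 ERG, had at most 9 reads in either LNCaP ERG library.

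Genes around the members, from 4 further lists, were read in the same fit for SW13 BRG1 ERG against BRG1 Empty. Of 23 further endothelial genes, 11 were called higher, 3 lower and 2 not called. Of all genes tested, 22.6% were called higher and 22.8% lower. The 16 tested had a median log2 change of 0.93, which describes only those that passed the filter on low counts. The lists were chosen with earlier results of these data known, so they are no independent check on the members. The shares called in the VEGF, Notch and transcription factor lists that follow lie near those of all genes. PROCR, the protein C receptor, averaged 9.34 CPM in BRG1 ERG and 0.285 CPM in BRG1 Empty (32.6-fold), and RHOJ, an endothelial GTPase, 6.7 CPM in BRG1 ERG and 0.542 CPM in BRG1 Empty (12.6-fold). Of 11 VEGF and angiopoietin ligands and co-receptors, 3 were higher (PGF, ANGPT1 and NRP1) and 3 lower (VEGFA, VEGFB and NRP2). VEGFA averaged 36.7 CPM in BRG1 ERG and 61.1 CPM in BRG1 Empty, the reverse of its receptor KDR. Of 10 Notch genes, DLL1 and HEY1 were higher and NOTCH2, NOTCH3 and JAG1 lower. HEY1, a Notch target, averaged 382 CPM in BRG1 ERG and 211 CPM in BRG1 Empty. Of 16 endothelial transcription factors, 4 were higher and 4 lower, among the lower ETS1, at 5.22 CPM in BRG1 ERG and 14.8 CPM in BRG1 Empty. In LNCaP ERG against Empty, 1 of the 23 further endothelial genes was higher (GJA5) and 4 lower. Of the 11 VEGF and angiopoietin genes, NRP1, NRP2 and PTPRB were lower. Of all genes tested in that comparison, 15.4% were called higher and 14.3% lower. GJA5 rested on few reads, 13 to 18 per library in ERG and 1 to 3 in Empty.

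Markers of other cell types moved as well. The summed level of 8 epithelial markers was 129 to 180 CPM in SW13 BRG1 ERG and 72.7 to 73.0 CPM in BRG1 Empty, 24.5 to 25.6 CPM in BRG1-K785R ERG and 8.54 to 9.01 CPM in BRG1-K785R Empty, and 5.34 to 6.22 CPM in GFP ERG and 4.9 to 6.1 CPM in GFP Empty. Of the 8, KRT8, KRT18 and CLDN7 were called higher and CDH1 and CLDN4 lower with ERG beside BRG1. Of all genes tested in that comparison, 22.6% were called higher and 22.8% lower. The sum of 11 blood cell markers was 8.23 to 8.67 CPM in BRG1 ERG and 4.02 to 4.93 CPM in BRG1 Empty, with LYZ called higher and with CD3E, GATA1 and GP9 among those at 0 reads. The sum of 10 mural and fibroblast markers was 106 to 107 CPM in BRG1 ERG and 129 to 134 CPM in BRG1 Empty. In LNCaP the epithelial sum was 2430 to 2440 CPM in ERG, 2280 to 2300 CPM in ETV1 and 1910 CPM in both Empty libraries, and the mural and fibroblast sum was 31.4 to 36.0 CPM in ERG, 30.6 to 32.3 CPM in ETV1 and 17.2 to 23.1 CPM in Empty. RGS5 alone averaged 14.0 CPM in LNCaP ERG, 18.4 CPM in ETV1 and 5.38 CPM in Empty. LUM had from 8 to 184 reads in the LNCaP ERG libraries. Of the 8 mural and fibroblast markers tested in LNCaP, RGS5, DCN and THY1 were called higher with ERG. With ETV1, RGS5 was called higher and PDGFRB lower. Of all genes tested, 15.4% were called higher and 14.3% lower with ERG, and 13.2% and 12.9% with ETV1. In VCaP the epithelial sum was 1550 to 1600 CPM in shERG, 5150 to 5520 CPM in shARID1A and 2540 to 2580 CPM in shCt. The mural and fibroblast sum was 87.6 to 89.3 CPM in VCaP shERG, 17.4 to 18.3 CPM in shARID1A and 58.5 to 60.5 CPM in shCt. LUM alone averaged 58.3 CPM in shERG and 1.39 CPM in shARID1A. Its log2 change against shCt was 1.1 ± 0.07 with shERG and -4.17 ± 0.13 with shARID1A. Of the 7 mural and fibroblast markers tested in VCaP, 3 were called higher with shERG and 1, MCAM, lower. With shARID1A, 1, PDGFRA, was called higher and 5 lower. Of all genes tested in VCaP, 29.3% were called higher and 37.4% lower with shERG, and 32.9% and 33.2% with shARID1A. DES and THY1 had no read in VCaP. The part of these markers in the members' changes was not tested.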

How the data were processed

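Poly(A) RNA was sequenced as single-end reads of 75 bp, per the labels' protocols. Reads were aligned with STAR 2.3.1 to hg19, per the submitters' processing notes; how reads were assigned to genes, and whether strand was used, is not stated in the sources at hand, so reads of overlapping or antisense genes cannot be told apart. Each deposited table holds a read count per gene and the RPKM the authors computed from it. Members were matched by symbol, and all 42 members and the gene lists were chosen with earlier results of these data known.

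The counts of each line were fitted with all its groups in edgeR 4.0.16 (R 4.3.3; TMM scaling, filter on low counts by group, quasi-likelihood test), with two-sided p-values adjusted by Benjamini-Hochberg over all genes tested: 16791 in VCaP, 16993 in LNCaP and 17018 in SW13. A gene was called at an adjusted p of 0.05. Shares of the 42 include members below the filter on low counts, while shares of all genes cover tested genes only. Below the filter were 5 members in SW13, 19 in LNCaP and 19 in VCaP. A p without another tool named is from this test. Folds and log2 changes are on the TMM scale, and levels (CPM) are counts scaled to the library total, so they can differ slightly. Intervals (95%) and floors (3 reads per library) cover counting error only. Genes were named by rule: members called at 2-fold or more, at 0.5 CPM or more in the higher group and without overlap between groups have their values printed, at most 24 by smallest adjusted p, and the rest appear as counts, ranges or examples of a role. In simulated counts for ERG beside BRG1, 89.7% of the genes changed 2-fold were recovered, and 10 of 178 calls were false. At 2-fold, 85.1% were recovered for LNCaP ERG and 70.8% for the difference between ERG beside BRG1 and beside GFP. The simulation changed few genes and otherwise gave each gene the same mean in all groups. It therefore does not measure recovery where many genes change or a group has hardly any reads. Replicate numbers were not shown to pair the samples (correlations of same-numbered deviations from -0.1 to 0.12), which does not exclude pairing. Alternatives were RLE scaling, library totals, no filter, only the compared groups, a replicate block, DESeq2 1.42.0 and leaving out each library.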

Additional observations from a re-analysis of the deposited data

Results flagged for a closer look

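For 26 member effects the change with ERG differed between constructs in SW13, by edgeR's test of the difference. All values here are differences of log2 changes, ± SE.

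Between BRG1 and GFP, the receptors differed by 3.99 ± 0.36 for KDR, 1.34 ± 0.13 for FLT4 and 3.1 ± 1.02 for TIE1. The ligands APLN and DLL4 differed by 4.13 ± 0.35 and 2.27 ± 0.33. The trafficking genes EXOC3L1, EXOC3L2 and RASIP1 differed by 4.08 ± 0.5, 6.73 ± 1.06 and 0.97 ± 0.26. EGFL7 differed by 0.58 ± 0.16, ENG by 1.79 ± 0.34 and LMO2 by 2.06 ± 0.83, the last at an adjusted p of 0.0492.

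Between BRG1 and BRG1-K785R, the receptors differed by 3.95 ± 0.38 for KDR, 1.27 ± 0.13 for FLT4, 3.78 ± 1.02 for ROBO4 and -0.7 ± 0.15 for TEK, which moved more beside BRG1-K785R. APLN differed by 0.86 ± 0.33 and DLL4 by 1.89 ± 0.3. EXOC3L1 differed by 4.15 ± 0.48, EXOC3L2 by 6.89 ± 1.9 and LMO2 by 2.99 ± 0.42. CD34 differed by 1.12 ± 0.13, S1PR1 by 0.78 ± 0.11, EGFL7 by 0.86 ± 0.16, ENG by 1.09 ± 0.39 and THBD by 2.94 ± 1.1. The difference of 9.16 for CD93 rests on 1 read in each of the 2 BRG1-K785R groups and lost its call without BRG1-K785R Empty replicate 2 (adjusted p = 0.988). ROBO4 lost its call without the same library (adjusted p = 0.0737). ENG was lost without BRG1-K785R Empty replicate 1 (adjusted p = 0.232), BRG1 Empty replicate 2 (adjusted p = 0.0845) or BRG1 ERG replicate 2 (adjusted p = 0.0523), and THBD without 5 of the 8 libraries in turn (adjusted p from 0.0561 to 0.16).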

How the results depend on the processing

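No call of a member changed direction under the alternatives run. Of 260 calls, RLE scaling ended 1, library totals 15, no filter 4 and DESeq2 38. A fit of only the compared groups ended 6 of 249, and the remaining calls had no test there. Leaving out a library ended 173 of 1144 calls so tested. With DESeq2, 7 members were called for VCaP shERG minus shCt, against 11. Leaving out a library gave from 6 to 8 members for LNCaP ETV1 minus Empty, from 5 to 7 for LNCaP ERG minus ETV1, from 4 to 9 for ERG beside GFP and from 7 to 9 for BRG1-K785R minus GFP with Empty. For ERG beside BRG1 the range was 24 to 26. Replicate numbers were not shown to pair the samples, and a fit with the replicate block called 27 members for ERG beside BRG1, the same number as without it, and ended 3 of the 260 calls: HHEX with shARID1A, AFAP1L1 for BRG1 minus GFP with Empty and ENG for BRG1-K785R minus GFP with Empty.

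With library totals as the scale, the share of all called genes that were higher became 60.5%, against 43.9%, for VCaP shERG, 40%, against 50.5%, for LNCaP ETV1, 64.6%, against 45.1%, for ERG beside BRG1-K785R and 62%, against 48.3%, for ERG beside GFP. It became 64.1%, against 51.6%, for BRG1 minus GFP with Empty and 66%, against 48.9%, for BRG1 minus BRG1-K785R with Empty. For the differences between constructs it became 37.1%, against 50.4%, for BRG1 and GFP and 29.9%, against 55.8%, for BRG1 and BRG1-K785R. Depth limits members with few reads in the lower group, where some folds are given as bounds or with counting intervals. Others are plain folds from the fit that rest on few reads. Examples are EXOC3L2 with ERG beside BRG1, TIE1 with ERG beside GFP and LMO2 against GFP Empty.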
